A study of Mus musculus with 10 samples.

Results

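Voltage-gated calcium channels open when the membrane depolarises and let calcium into the cell. In somatosensory neurons this calcium drives transmitter release at the central terminals, shapes firing and feeds calcium-dependent transcription. Each channel is built around a pore-forming alpha1 subunit. High-voltage-activated channels of the CaV1 (L-type) and CaV2 (P/Q-, N- and R-type) families also need beta and alpha2delta subunits to reach the membrane, whereas the low-voltage-activated CaV3 (T-type) channels open close to the resting potential. Of this family, 10 genes are described here in dorsal root ganglia (DRG). They were chosen by symbol, as 8 pore-forming genes (*Cacna1a*, *Cacna1b*, *Cacna1c*, *Cacna1d*, *Cacna1e*, *Cacna1g*, *Cacna1h* and *Cacna1i*) and 2 alpha2delta genes (*Cacna2d1* and *Cacna2d2*), and all 10 were found among the 55414 genes that each library lists.

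The libraries were made from whole DRG of mouse embryos at E18.5, with 5 libraries from control and 5 from *WD1* cKO embryos. *WD1* cKO embryos carry *Wnt1* Cre on 1 allele and a floxed *Dach1* gene on both alleles (*Wnt1* Cre/+; *Dach1* flox/flox), so that *Dach1*, a transcriptional corepressor, is deleted in the neural crest, from which both the neurons and the glia of the ganglia arise. Control embryos carry the same floxed alleles without Cre. The floxed line is of mixed C57Bl/6J and CD1 background and *WD1* cKO mice die soon after birth, so the comparison is limited to the embryo. Titles and genotype entries of the samples contradict each other, with the 2 genotypes swapped, and the titles were followed. The level of *Dach1*, in counts per 1e6 assigned reads (CPM), was 35.1, 38.5, 41.6, 37.1 and 37.4 in control libraries 1 to 5 and 19.1, 20.7, 19.5, 20.3 and 20.4 in *WD1* cKO libraries 1 to 5. Every library with Cre in its title was thus below every control, at -0.92 ± 0.050 (estimate ± standard error, SE) on the log2 scale. The floxed part is exon 2, and counts per gene take in all exons, so this RNA level does not measure intact *Dach1*. By immunostaining, the paper found Dach1 protein lost in *WD1* cKO DRG by E18.5. Adjusted p-values throughout are those of edgeR with Benjamini-Hochberg adjustment, and for *Dach1* the adjusted p = 5.48e-06 in that edgeR fit.

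Total counts ranged from 19757596 to 34796562. The labels name the cells as neurons and glia, and the 6 pan-neuronal markers examined (*Tubb3*, *Snap25*, *Elavl4*, *Isl1*, *Pou4f1* and *Avil*) summed to between 3857 and 4173 CPM, and the glial marker *Sox10* was at 78.0 to 109.8 CPM. Control replicate 3 stood apart, with 28.7 CPM summed over 9 spinal cord markers against 0.842 to 2.22 in the other 9 libraries. Log2 fold changes of several genes are given with and without it. Libraries with replicate numbers 1 to 3 also stood apart from those numbered 4 and 5 in both groups. On the first principal component of the deviations from the group means they lay between -24.4 and -2.97 against 20.3 to 23.3, and the labels do not say what the numbers mark. *Xist*, which marks female embryos, was at 958 CPM or more in control replicates 2 and 5 and in *WD1* cKO replicates 1, 3, 4 and 5, so sex and genotype partly overlap. In whole ganglia, fewer cells of a type and less RNA per cell cannot be told apart.

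The stretch that sets the pore-forming families apart is the loop of repeat IV that lines the pore, where an acidic residue forms part of the selectivity filter. It is shown because it separates the high- and the low-voltage-activated members by sequence. Each run below holds 30 bases of the GENCODE transcript, 5′ to 3′, and capitals mark the codon of the filter residue.
Cacna1c: ctgttcaggtgtgccaccggaGAGgcctgg
Cacna1d: ctcttcaggtgtgcaacagggGAAgcctgg
Cacna1a: ctcttccggagcgccacaggaGAAgcgtgg
Cacna1b: ttgttcaggagtgccactgggGAGgcctgg
Cacna1e: cttttcaggagtgccacggggGAGgcttgg
Cacna1g: ctcttccgagtctccactggtGACaactgg
Cacna1h: ttgttccgagtgtccactgggGACaactgg
Cacna1i: ctcttccaggtctccacaggcGATaactgg
The CaV1 and CaV2 genes carry a glutamate codon and the 3 CaV3 genes an aspartate codon. In GRCm38 the stretch lies in coding exons and spans an exon junction in all 5 CaV1 and CaV2 genes: exons 35 and 36 of 48 of *Cacna1c* (chr6:118614056-118624374, minus strand), 35 and 36 of 49 of *Cacna1d* (chr14:30075950-30077686, minus strand), 34 and 35 of 47 of *Cacna1a* (chr8:84602032-84611619, plus strand), 35 and 36 of 47 of *Cacna1b* (chr2:24635219-24637433, minus strand) and 36 and 37 of 47 of *Cacna1e* (chr1:154425981-154426533, minus strand), with the intron inside each interval. In the CaV3 genes it lies within a single exon, which is exon 32 of 38 of *Cacna1g* (chr11:94416421-94416450, minus strand), exon 31 of 35 of *Cacna1h* (chr17:25377777-25377806, minus strand) and exon 31 of 37 of *Cacna1i* (chr15:80388476-80388505, plus strand). The motif through which a beta subunit binds the pore-forming subunit was found once in the longest reading frame of each CaV1 and CaV2 gene and in none of the 3 CaV3 genes.

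The alpha2delta proteins are extracellular, carry channels to the membrane and, in *Cacna2d1* and *Cacna2d2*, bind gabapentin and pregabalin through a run of arginines. The 33 bases around it are shown for both genes and for *Cacna2d3*, another alpha2delta gene that is described further on, with the 3 codons of the run in capitals.
Cacna2d1: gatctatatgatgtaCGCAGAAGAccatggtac
Cacna2d2: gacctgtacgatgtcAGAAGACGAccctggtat
Cacna2d3: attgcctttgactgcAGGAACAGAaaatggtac
The run reads as 3 arginine codons in *Cacna2d1* (exons 8 and 9 of 39, chr5:16264299-16266690, plus strand) and in *Cacna2d2* (exons 8 and 9 of 38, chr9:107512332-107513057, plus strand). In *Cacna2d3* (exons 7 and 8 of 38, chr14:29347028-29347150, minus strand) an asparagine codon stands between the arginine codons.

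The levels of the members spanned more than 2 orders of magnitude once divided by exon length. In control embryos *Cacna1b*, which encodes the N-type channel CaV2.2 of presynaptic terminals, was highest at 48.3 ± 1.35 CPM per kb of exon (SD, n = 5). It was followed by *Cacna2d2* at 30.1 ± 0.892, *Cacna1h*, the T-type channel CaV3.2, at 24.1 ± 2.42 and *Cacna2d1* at 22.4 ± 1.43 CPM per kb (SD, n = 5). *Cacna1a*, the P/Q-type channel CaV2.1, had 15.2 ± 0.875 and *Cacna1c*, the L-type channel CaV1.2, 8.18 ± 0.243 CPM per kb (SD, n = 5). The second L-type gene *Cacna1d* (CaV1.3) had 2.82 ± 0.0998, *Cacna1g* (CaV3.1) 2.51 ± 0.872 and *Cacna1e* (R-type, CaV2.3) 2.18 ± 0.298 CPM per kb (SD, n = 5). *Cacna1i* (CaV3.3) was lowest at 0.331 ± 0.0739 CPM per kb (SD, n = 5), or 45 to 138 counts per library. Neighbours in this order whose libraries overlapped, in control and in *WD1* cKO alike, were *Cacna1h* and *Cacna2d1*, *Cacna1d* and *Cacna1g*, and *Cacna1g* and *Cacna1e*. The other neighbours did not overlap in either group. Length mattered for this order, since in plain CPM *Cacna2d1* came second and *Cacna1e* seventh. It counts every annotated exon, whether or not used in DRG: 25.2 kb in *Cacna1e*, 21.2 kb in *Cacna1c* and 11.4 kb in *Cacna1a*. In plain CPM *Cacna1a* and *Cacna1c* were nearly equal in control, at 173.4 and 173.2.

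**Figure D1:**
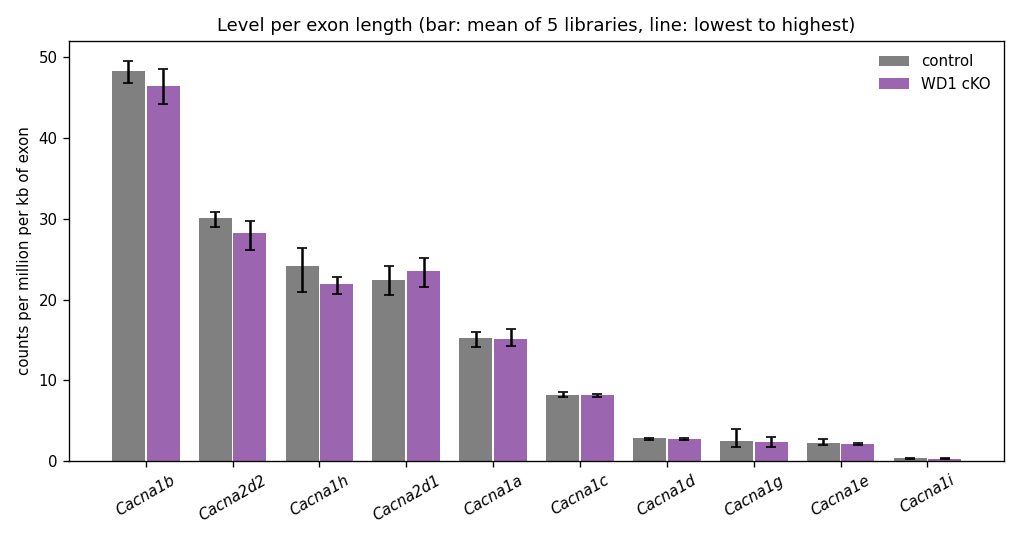
Level of the 10 calcium channel genes in CPM per kb of exon (y axis) in control and *WD1* cKO DRG; bars are the mean of 5 libraries and lines run from the lowest to the highest library. *Cacna1b* is highest at 48.3 CPM per kb in control and *Cacna1i* lowest at 0.331, in an order that is the same in both groups except that *Cacna2d1* (23.6) lies above *Cacna1h* (21.9) in *WD1* cKO.

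Expressed as a share of the summed level per length of the 8 pore-forming genes, no gene or family had groups free of overlap. The size of each share depends on the same annotated exon lengths. *Cacna1b* made up 46.6% ± 1.94 in control and 46.9% ± 0.774 in *WD1* cKO embryos (SD, n = 5). *Cacna1h* made up 23.2% ± 2.1 and 22.1% ± 0.769, and *Cacna1a* 14.7% ± 0.730 and 15.3% ± 0.719 (SD, n = 5). By family, CaV2 genes held 61.0 to 65.8% of the control libraries and 62.9 to 65.6% of the *WD1* cKO libraries, CaV3 genes 23.1 to 28.5% and 23.3 to 26.2%, and CaV1 genes 10.3 to 11.1% and 10.8 to 11.3%. *Cacna1h* alone was 85.1 to 91.0% of the CaV3 level across all 10 libraries, with control replicate 3 at the lower end.

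The comparison of *WD1* cKO with control DRG asks how far the early loss of *Dach1* alters gene expression in the ganglion, here for the calcium channels. In neither edgeR nor DESeq2 did any of the 10 genes pass an adjusted threshold of 0.05, which 0.0400% and 0.109% of the 17490 genes tested passed. Without adjustment 2 of 10 had a p-value under 0.05 in each of these tests, *Cacna1h* and *Cacna2d2*, both lower in *WD1* cKO, beside 2.38% of all genes that were lower and 2.12% that were higher at that threshold in edgeR, and 3.68% in either direction in DESeq2. No member passed the study's cut-off, a p under 0.005 plus a log2 fold change of over 0.15 in size, which 0.383% of all genes passed in edgeR. The paper names DESeq2 as its test, and in DESeq2 here 78 genes and again no member passed. For 9 of 10 members the estimated log2 fold change was below 0, including all 8 pore-forming genes, and the median of the 10 was -0.068 on the log2 scale. Among all genes 49.9% were below 0 and the median was 0.0002. The signs of *Cacna1a*, *Cacna1c*, *Cacna1e*, *Cacna1g* and *Cacna1i* turned under at least 1 alternative setting or when a library was left out, so these 5 have no settled direction. No member's groups were free of overlap, which 0.566% of all genes were with *WD1* cKO lower and 0.497% with *WD1* cKO higher.

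**Figure D2:**
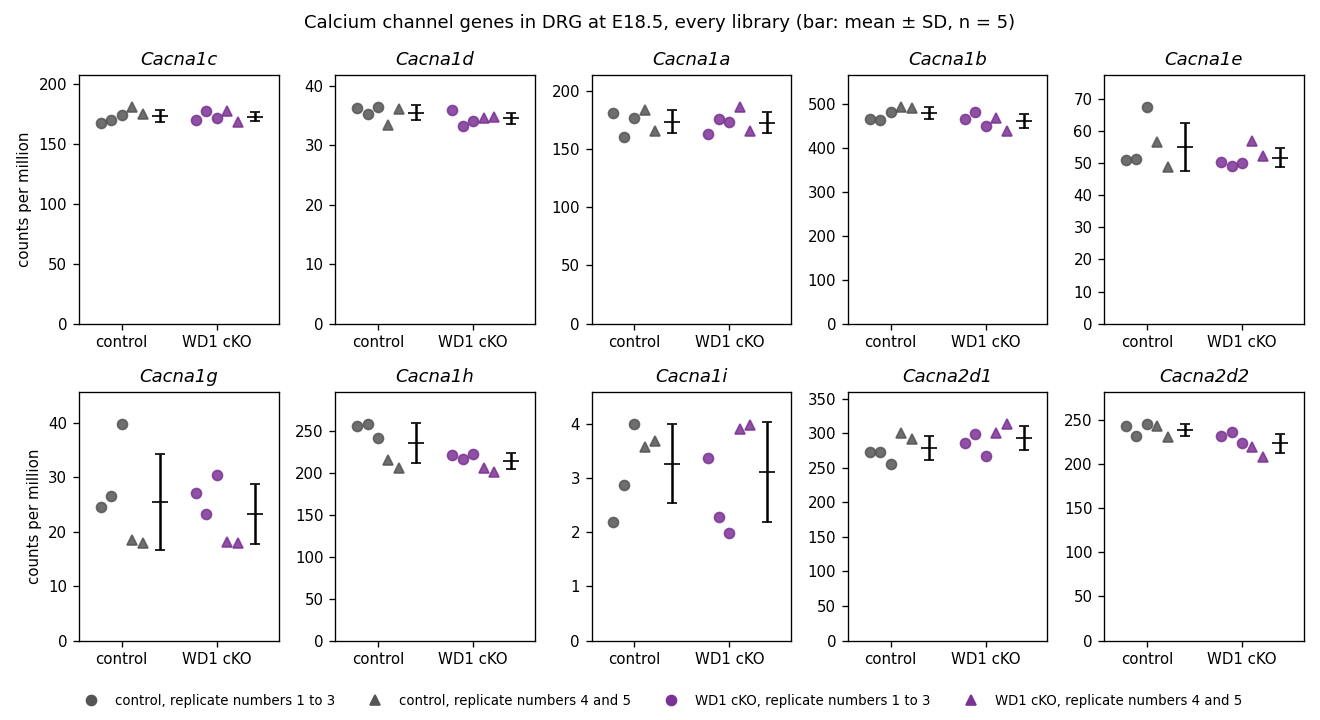
CPM (y axis, from 0) of each calcium channel gene in every control and *WD1* cKO library; circles are replicate numbers 1 to 3, triangles numbers 4 and 5, and bars the mean ± SD of 5 libraries. The groups overlap in all 10 genes, and in *Cacna1g* and *Cacna1h* the circles lie above the triangles in both groups.

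Among the CaV2 genes, *Cacna1b* (ENSMUSG00000004113) encodes the N-type channel that triggers transmitter release from nociceptor terminals and is the target of ziconotide. It had 467, 465, 483, 493 and 492 CPM in control libraries 1 to 5 and 467, 483, 451, 468 and 440 CPM in *WD1* cKO libraries 1 to 5. In *WD1* cKO, 2 libraries lay below every control and the remaining ones were within the control range. Its log2 fold change was -0.057 (95% interval -0.13 to 0.022, adjusted p = 1.00 in edgeR), and the exact two-sided permutation test gave p = 0.111. *Cacna1a* (ENSMUSG00000034656), which supports release at many central synapses, had 181, 160.5, 177, 183 and 165 CPM in control and 163, 175.5, 173, 186 and 166 CPM in *WD1* cKO. Both groups covered nearly the same range, and the log2 fold change was -0.0078 (95% interval -0.11 to 0.095). *Cacna1e* (ENSMUSG00000004110), the R-type gene, had 51.0, 51.2, 67.4, 56.6 and 48.7 CPM in control and 50.4, 49.1, 50.1, 56.9 and 52.1 CPM in *WD1* cKO. Control replicate 3 was the one high library, and the log2 fold change of -0.089 (95% interval -0.26 to 0.086) became -0.0056 without control replicate 3 and 0.0080 without replicate 3 of both groups.

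The L-type genes varied little between libraries. *Cacna1c* (ENSMUSG00000051331), which couples activity to calcium-dependent transcription, had 167, 170, 174, 180 and 175 CPM in control and 169.5, 177, 171, 177 and 168 CPM in *WD1* cKO. The coefficient of variation was 2.97% in control and 2.40% in *WD1* cKO, and the log2 fold change was -0.0049 (95% interval -0.072 to 0.063). *Cacna1d* (ENSMUSG00000015968), whose channel opens at more negative potentials than that of *Cacna1c*, had 36.3, 35.4, 36.4, 33.4 and 36.2 CPM in control and 35.9, 33.3, 34.1, 34.6 and 34.8 CPM in *WD1* cKO. Its log2 fold change was -0.040 (95% interval -0.13 to 0.045). *Cacna1d* lies on chromosome 14, as does *Dach1*.

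Of the T-type genes, *Cacna1h* (ENSMUSG00000024112, chromosome 17) is known for its strong expression in D-hair mechanoreceptors and in a subset of nociceptors, where its current sets excitability near rest. It had 255.5, 258, 241, 216 and 205.5 CPM in control and 222, 216.5, 223, 206 and 202 CPM in *WD1* cKO libraries 1 to 5. The first 3 controls were above every *WD1* cKO library, while control replicates 4 and 5 lay among them. This gave a log2 fold change of -0.14 (SE 0.063, 95% interval -0.28 to -0.0016, adjusted p = 1.00 in edgeR), a change of -9.19%. The exact two-sided permutation test of mean log2 CPM gave p = 0.127. In the 10 fits that left out 1 library each, the unadjusted p stayed under 0.05 in 3, those without control replicate 4, control replicate 5 or *WD1* cKO replicate 3, and rose above it in the other 7.

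*Cacna1h* also differed by replicate number. Within numbers 1 to 3 the mean was 251.7 CPM in control and 220.3 CPM in *WD1* cKO, a log2 difference of -0.19 without overlap. Within numbers 4 and 5 it was 210.6 and 203.6 CPM, a log2 difference of -0.048 with overlap, and these within-set values carry no test. With a term for the sets the log2 fold change was -0.14 (SE 0.035, adjusted p = 0.466 in edgeR). It was then among the 7.33% of all genes with an unadjusted p under 0.05, while 0.0629% had an adjusted one under it. With the level of *Xist* as a covariate the log2 fold change was -0.13 and its unadjusted p was above 0.05. The call of *Cacna1h* thus depended on the terms of the model and did not survive adjustment in any of them.

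*Cacna1g* (ENSMUSG00000020866, chromosome 11), whose T-type current supports burst firing in central neurons, had the largest coefficient of variation of the members in control embryos, 34.8%, and one of 23.6% in *WD1* cKO. It had 24.6, 26.5, 39.7, 18.47 and 17.8 CPM in control and 27.0, 23.25, 30.4, 18.1 and 17.9 CPM in *WD1* cKO. Replicate 3 was the highest library in each group, and numbers 4 and 5 were the lowest in both. Between the groups the log2 fold change was -0.12 (SE 0.22, 95% interval -0.59 to 0.35) and was 0.10 without control replicate 3 and -0.014 without replicate 3 of both groups. With the term for the replicate sets its standard error shrank to 0.12, at a log2 fold change of -0.11 (adjusted p = 0.888 in edgeR). *Cacna1i* (ENSMUSG00000022416), the gene with the fewest counts, had 2.19, 2.87, 4.00, 3.57 and 3.70 CPM in control and 3.37, 2.28, 1.99, 3.91 and 3.98 CPM in *WD1* cKO. Its groups overlapped throughout, and the 95% interval of the log2 fold change ran from -0.55 to 0.40.

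**Figure D3:**
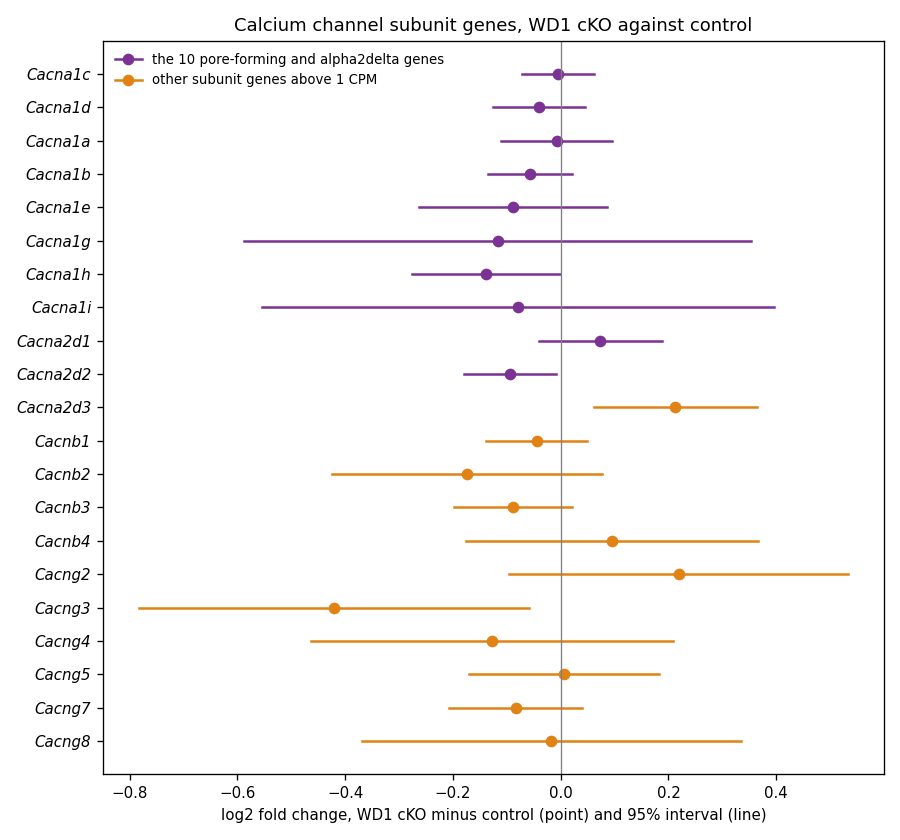
Log2 fold change of *WD1* cKO minus control (x axis; points) with its 95% interval (lines) for the 10 calcium channel genes in purple and for the other subunit genes above 1 CPM in orange. *Cacna1g* (-0.59 to 0.35) and *Cacna1i* (-0.55 to 0.40) have the widest intervals of the purple genes, *Cacna1c* (-0.072 to 0.063) has the narrowest, and the intervals of *Cacna1h*, *Cacna2d2*, *Cacna2d3* and *Cacng3* do not cross 0 before adjustment.

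The estimates of the 2 alpha2delta members had opposite signs, but neither gene passed the adjusted threshold and the interval of *Cacna2d1* included 0. *Cacna2d2* (ENSMUSG00000010066, chromosome 9) had 243, 232, 245.5, 244 and 231 CPM in control and 232, 236, 224, 219 and 208 CPM in *WD1* cKO libraries 1 to 5. In *WD1* cKO, 3 libraries lay below every control, and the other two lay within the control range. The log2 fold change was -0.094 (SE 0.039, 95% interval -0.18 to -0.0091, adjusted p = 1.00 in edgeR), a change of -6.32%, and the exact two-sided permutation test gave p = 0.0397. Leaving out 1 library at a time, the unadjusted p stayed under 0.05 in 4 of 10 fits, without control replicate 2 or 5 or *WD1* cKO replicate 1 or 2. With *Xist* as a covariate the log2 fold change was -0.061 and its unadjusted p was above 0.05. The log2 difference was -0.057 within replicate numbers 1 to 3 and -0.15 within numbers 4 and 5.

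*Cacna2d1* (ENSMUSG00000040118, chromosome 5), the gabapentin-binding subunit known to increase in DRG neurons after nerve injury, had 272, 272, 255.5, 300.3 and 292 CPM in control and 286, 299, 267, 300.1 and 313 CPM in *WD1* cKO. In *WD1* cKO, 1 library exceeded every control, and replicate 3 was the lowest of each group. The log2 fold change was 0.074 (95% interval -0.040 to 0.19, adjusted p = 1.00 in edgeR), with p = 0.222 in the exact two-sided permutation test. It was 0.090 within numbers 1 to 3 and 0.050 within numbers 4 and 5. The share of *Cacna2d2* in the summed level per length of both genes was 55.3 to 60.0% in control and 50.9 to 56.7% in *WD1* cKO libraries, with means of 57.3% and 54.4%. The ranges overlapped.

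The split between replicate numbers 1 to 3 and 4 and 5 passed through 3 of the 10 members in the same direction in both groups, beside 15.4% of all genes tested, 7.15% higher and 8.24% lower in numbers 1 to 3. *Cacna1g* was higher in numbers 1 to 3, with a log2 difference of numbers 4 and 5 minus numbers 1 to 3 of -0.70 in control and -0.57 in *WD1* cKO. *Cacna1h* was also higher there, at -0.26 and -0.11, and *Cacna2d1* was lower, at 0.15 and 0.11. The 5 erythroid markers (*Hba-a1*, *Hba-a2*, *Hbb-bt*, *Hbb-bs* and *Alas2*) moved with the same split. They summed to between 1071 and 2464 CPM in control and 509 and 1134 CPM in *WD1* cKO libraries 1 to 3, and to 155 to 183 and 189 to 243 CPM in numbers 4 and 5, with 4 of 5 markers apart in both groups and none at 0. Their part in the levels of these genes was not tested. For the remaining members the log2 fold change within numbers 1 to 3 and within numbers 4 and 5 was -0.020 and 0.013 for *Cacna1a*, -0.015 and -0.12 for *Cacna1b*, 0.021 and -0.042 for *Cacna1c*, -0.065 and -0.0036 for *Cacna1d*, -0.17 and 0.053 for *Cacna1e*, and -0.24 and 0.12 for *Cacna1i*. Of these 6 genes, 4 changed sign between the sets.

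**Figure D4:**
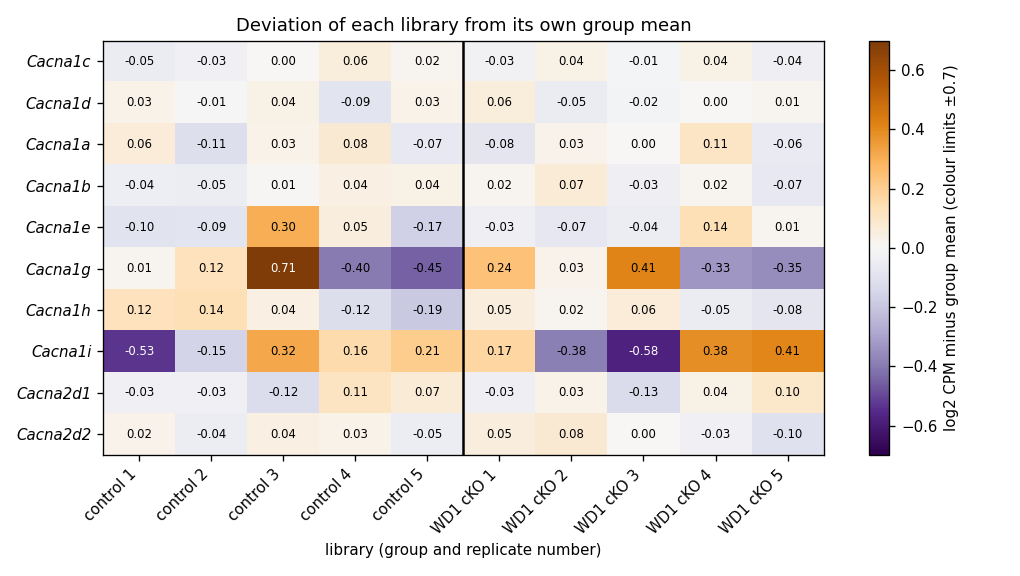
Deviation of each library (columns) from the mean of its own group, in log2 CPM, for the 10 calcium channel genes (rows); orange is above and purple below the group mean, with colour limits at ±0.7. *Cacna1g* runs from 0.71 in control replicate 3 to -0.45 in control replicate 5, whereas *Cacna1b*, *Cacna1c* and *Cacna1d* stay within 0.088 of their group means.

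Control replicate 3 held the highest level of the 10 libraries for 5 of the 10 members, beside 14.0% of all genes. These were *Cacna1d*, *Cacna1e*, *Cacna1g*, *Cacna1i* and *Cacna2d2*. The next library was close for *Cacna1d* (36.43 against 36.29 CPM), *Cacna1i* (4.001 against 3.983 CPM) and *Cacna2d2* (245.5 against 243.8 CPM). Without control replicate 3 their log2 fold changes went from -0.040 to -0.031, from -0.080 to 0.0001 and from -0.094 to -0.084. That of *Cacna2d1*, lowest in this library among the controls, went from 0.074 to 0.044. All 9 spinal cord markers examined (*Slc6a5*, *Pax2*, *Olig1*, *Olig2*, *Gad1*, *Gad2*, *Slc32a1*, *Lhx1* and *Lhx5*) were highest in this library as well, and 8 of the 9 were at 0 in at least 1 other library. Their summed level ran from 0.920 to 28.7 CPM in control and from 0.842 to 2.22 CPM in *WD1* cKO, with *WD1* cKO replicate 3 the highest of its group. *Cacna1e* and *Cacna1g* had 67.4 and 39.7 CPM in control replicate 3 against at most 56.9 and 30.4 CPM in the other 9 libraries. *Cacng4*, a gamma subunit gene, had 43.8 CPM there and 22.6 to 33.3 CPM elsewhere, and its log2 fold change of -0.13 was 0.034 without that library. *Cacng4* was also higher in replicate numbers 1 to 3 in both groups. Its log2 difference of numbers 4 and 5 minus numbers 1 to 3 was -0.40 in control and -0.40 in *WD1* cKO. Of 4 smooth muscle and mural markers, 3 (*Acta2*, *Myh11* and *Tagln*) were also highest in control replicate 3, and *Rgs5* was not. The part of the spinal cord, smooth muscle and mural markers in these levels was not tested.

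**Figure D5:**
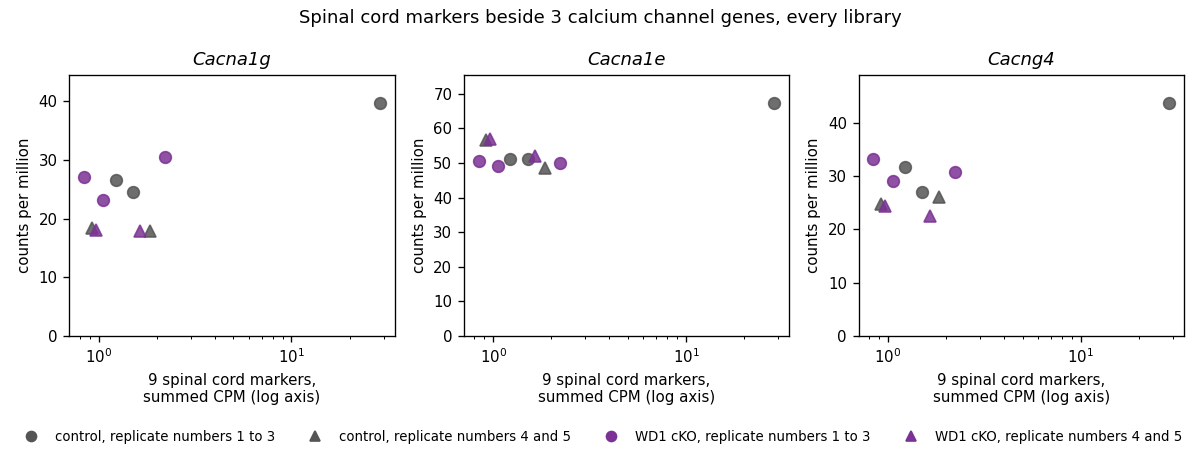
CPM of *Cacna1g*, *Cacna1e* and *Cacng4* (y axes, from 0) against the summed CPM of 9 spinal cord markers (x axis, log scale) in every library; circles are replicate numbers 1 to 3 and triangles numbers 4 and 5, grey for control and purple for *WD1* cKO. Control replicate 3, at 28.7 CPM of markers, lies alone on the right and is the highest library for all 3 genes. The genes shown are among those highest in that library, so their height there is no independent result.

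The remaining subunit genes of the family were examined in the same fit. Of 16, 14 passed the filter on low counts (all but *Cacna2d4* and *Cacng6*), 9 of those had a log2 fold change below 0, beside 49.9% of all genes, and the median was -0.064. None passed the adjusted threshold in edgeR, and 2 of 14 had an unadjusted p under 0.05, 1 in each direction, beside 2.38% of all genes lower and 2.12% higher. *Cacna2d3* lies on chromosome 14, as do *Dach1* and *Cacna1d*. It had 21.9, 25.9, 21.1, 24.7 and 26.0 CPM in control and 28.6, 29.0, 24.6, 27.7 and 28.8 CPM in *WD1* cKO. In *WD1* cKO, 4 of 5 libraries exceeded every control. Its log2 fold change of 0.21 (SE 0.070, adjusted p = 1.00 in edgeR) came with p = 0.0317 in the exact two-sided permutation test. The unadjusted p of the gene-wise fit was under 0.05 in all 19 alternatives and the adjusted one in none, with 0.358 the lowest. Its level per length, 2.74 CPM per kb in control, was far below the 30.1 and 22.4 CPM per kb of *Cacna2d2* and *Cacna2d1*. *Cacng3*, a gamma subunit gene better known as a partner of AMPA receptors, had 4.54, 3.70, 6.59, 4.34 and 6.95 CPM in control and 4.42, 3.95, 3.51, 3.81 and 3.81 CPM in *WD1* cKO. Controls 3 and 5 stood high, and the difference was -0.42 on the log2 scale (SE 0.17, adjusted p = 1.00 in edgeR), with p = 0.0952 in the exact two-sided permutation test. Leaving out control replicate 3 gave -0.32, control replicate 5 -0.30, *WD1* cKO replicate 3 -0.39 and replicate 3 of both groups -0.29, and in each of these fits the unadjusted p was above 0.05.

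The beta subunits bind the CaV1 and CaV2 proteins inside the cell and bring them to the surface. *Cacnb3* was the most abundant of them per length, at 58.8 CPM per kb in control and 55.3 in *WD1* cKO, followed by *Cacnb1* at 20.8 and 20.2, *Cacnb4* at 6.13 and 6.56 and *Cacnb2* at 0.393 and 0.348 CPM per kb. The log2 fold change of *Cacnb3* was -0.089 (95% interval -0.20 to 0.020), or -0.050 without control replicate 3, and that of *Cacnb1* was -0.045 (95% interval -0.14 to 0.048). *Cacnb4* followed the replicate numbers, with 46.4 to 50.3 CPM in control libraries 1 to 3 against 63.7 and 66.5 CPM in control libraries 4 and 5, and 49.8 to 55.6 CPM against 67.5 and 70.0 CPM in *WD1* cKO. The pore-forming genes of skeletal muscle and retina, *Cacna1s* and *Cacna1f*, were at no more than 0.195 CPM per kb in any library.

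Genes whose products bind, place or regulate the channels were a further list of 26. All were tested, 17 had a log2 fold change below 0, against the same 49.9% of all genes, the median was -0.014, and none had a p-value under 0.05 even before adjustment in edgeR. *Cbarp*, which restrains CaV2 surface levels, had 182 to 208 CPM in control and 177 to 189 CPM in *WD1* cKO. *Dpysl2* (CRMP2), a partner of the N-type channel, had 306 to 342 CPM and 324 to 353 CPM. *Rims1* and *Erc1* of the presynaptic active zone had 117 to 125 CPM and 171 to 187 CPM in control, against 115.5 to 128 CPM and 168 to 186 CPM in *WD1* cKO. *Cachd1*, an alpha2delta-like protein, had 27.2 to 33.7 CPM in control and 31.0 to 36.6 CPM in *WD1* cKO (log2 fold change 0.12, adjusted p = 1.00 in edgeR).

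The genes whose deviations from the group means were most like those of a member over the 10 libraries were found by Pearson's r among 17489 genes. They were *Tia1* (0.970), *Traf4* (0.963) and *Luc7l* (0.961) for *Cacna1h*, *Sppl3* (0.971), *Gm7265* (0.956) and *Jph4* (0.947) for *Cacna2d2*, *Epb41l3* (0.979), *Cpne6* (0.978) and *Cntn3* (0.973) for *Cacna2d1*, and *Fat4* (0.974), *Mfap2* (0.967) and *Tra2b* (0.967) for *Cacna1g*. For *Cacna1b* they were *Arl8a* (0.970), *Ubr4* (0.962) and *Lrrc75b* (0.949). No other member was among these genes. With 10 libraries and so many genes, values of this size describe the libraries and carry no test, and the points share the split by replicate number.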

How the data were processed

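Bulk RNA-seq libraries of E18.5 DRG, 5 per genotype, were grouped by their titles. The authors prepared stranded mRNA libraries, aligned reads to GRCm39 with STAR 2.7.8a and deposited the featureCounts 2.0.1 counts per gene, not normalized (per the labels, demultiplexed with bcl2fastq 2.20.0.422). The strand setting and the handling of multimapping reads are not given in the sources used here, so reads in exons shared with an antisense gene are uncertain. These are 3.81% of the exon length of *Cacna1a*, 4.67% of *Cacna1d*, 1.62% of *Cacna1h* and 1.03% of *Cacna2d2*.

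The 17490 genes that reached 10 counts in 5 or more libraries were compared in R 4.3.3 with edgeR 4.0.16 (TMM scaling, quasi-likelihood test, no block, Benjamini-Hochberg adjustment), and in DESeq2 1.42.0 as an alternative. CPM used TMM-scaled library sizes, and deviations and exact permutation tests used log2 CPM with a prior count of 1. Levels per length used the summed exon length of GENCODE M21 on GRCm38, which also gave sequences and exon numbers. Symbols came from a separate list of gene names, which matched 52081 of 55414 identifiers. Sequences came from the longest reading frame of a coding transcript. The scripts were tested on simulated data. Also tried were size factors of DESeq2, no filter, a mean count of at least 100, robust dispersions, the replicate number as a block, a term for replicate numbers 1 to 3 against 4 and 5, *Xist* as a covariate, and each library left out. Leaving out replicate 3 of both groups was chosen after seeing the data. The division of replicate numbers 1 to 3 from 4 and 5 also follows a separation seen in these data, not the labels. Fits and counts that use this division are therefore descriptions and no independent check.

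The members and gene lists were chosen with earlier results of these data known. Named genes are the members, the other subunits, the partners, *Dach1*, *Xist*, markers and the 3 genes most like a member. Library totals were 20465132 to 27528784 counts (control) and 19757596 to 34796562 counts (*WD1* cKO). Replicate pairs were further apart than counting noise, with chi-square over its degrees of freedom of 4.33 to 15.7. The paper names the controls as littermates, but the labels do not say which libraries share a litter, and the main fit has no litter term. The p-values set the difference between the groups against the spread between these samples.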

Additional observations from a re-analysis of the deposited data

Results flagged for a closer look

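Among 102 groups of 5 libraries examined for the members and related genes, 2 held a library far from the other 4 by Dixon's test at the 95% level, where chance alone gives about 5.1 (1 in 20). *Gem*, a small GTPase that inhibits high-voltage-activated calcium channels, was at 1.80 CPM in control replicate 5 and at 1.03 to 1.17 CPM in the other controls. *Erc2*, a scaffold protein of the presynaptic active zone, was at 200.1 CPM in control replicate 3 and at 219.7 to 227.6 CPM in the other controls. None of the 10 calcium channel genes had such a library.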

How the results depend on the processing

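None of the 10 calcium channel genes reached an adjusted p-value under 0.05 under any alternative (edgeR's quasi-likelihood test or DESeq2's Wald test). Unadjusted, 2 had a p under 0.05, against 1 without a filter (*Cacna1h*), 1 with a mean count of at least 100 (*Cacna2d2*), 0 with *Xist* as a covariate, 0 without replicate 3 of both groups and 0 to 2 when 1 library was left out (0 without control replicate 1 or 3 or *WD1* cKO replicate 4 or 5). Over all genes, those with an adjusted p under 0.05 numbered 7, with 19 in DESeq2, 4 above a mean count of 100, 11 with the term for the replicate sets, 4 with *Xist*, 4 without replicate 3 of both groups and 3 to 6 with 1 library left out. Those passing the study's cut-off numbered 67, and 78 in DESeq2, 128 without a filter, 133 with the replicate block and 117 with the term for the replicate sets.

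Of 189 log2 fold changes of members under the alternatives, 170 kept their sign and their side of the threshold and 19 turned sign. *Cacna1a* was 0.0020 without a filter, 0.034 with *Xist* and 0.0011 without replicate 3 of both groups, and *Cacna1c* 0.0050, 0.0054 and 0.0012 in the same order. Without replicate 3 of both groups *Cacna1e* was 0.0080 and *Cacna1i* 0.13. With 1 library left out the range was -0.036 to 0.013 for *Cacna1a*, -0.018 to 0.010 for *Cacna1c*, -0.24 to 0.10 for *Cacna1g* and -0.20 to 0.048 for *Cacna1i*, and *Cacng4* turned to 0.034 without control replicate 3. The cause was not tested. *Cacna1i* was left out by the filter on a mean count of 100.

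Same-numbered libraries of the groups deviated together in 4 of 5 pairs (r from 0.320 to 0.390) but not in number 2 (0.0404). The highest r with a library of another number was similar, at 0.203 to 0.371. Only 3 of 5 correlated best with their own number, so the numbers were not taken as pairs. With the replicate block *Cacna1h* had a log2 fold change of -0.13 (adjusted p = 0.538, edgeR), *Cacna2d2* of -0.095 (adjusted p = 0.652) and *Cacna2d1* of 0.074 (adjusted p = 0.687). All 3 had an unadjusted p under 0.05 in that fit, as had 7.10% of all genes. *Cacna1i* had the lowest depth of the members, 45 to 138 counts per library.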

Other observations

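Calcium that enters through these channels acts on calcineurin and CaM kinase, among others, and is amplified from internal stores by ryanodine receptors. *Ppp3ca*, a catalytic subunit of calcineurin, had 407 to 489.5 CPM in control and 434.5 to 462 CPM in *WD1* cKO. *Camk2b* had 192 to 213 CPM and 184 to 219 CPM. All 3 ryanodine receptor genes were present. *Ryr2* had 47.8 to 68.7 CPM in control and 44.7 to 58.6 CPM in *WD1* cKO, *Ryr3* 29.8 to 39.7 CPM and 29.7 to 37.4 CPM, and *Ryr1*, the main form of skeletal muscle, 10.9 to 21.4 CPM and 12.0 to 17.0 CPM. The groups overlapped in each of these genes. The 6 skeletal muscle markers examined (*Acta1*, *Myh3*, *Myh8*, *Ckm*, *Ttn* and *Myog*) summed to 20.9 to 177.7 CPM in control and 44.7 to 96.0 CPM in *WD1* cKO. Among controls, replicate 4 was lowest for these markers and for *Ryr1*. In *WD1* cKO, replicate 3 was highest for the markers and replicate 2 for *Ryr1*. The part of muscle in the level of *Ryr1* was not tested.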
